A study of Rattus norvegicus with 10 samples.

Results

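The mitochondrial solute carriers are the SLC25 proteins, which mostly sit in the inner membrane of the mitochondrion and exchange metabolites, nucleotides, cofactors and ions between matrix and cytosol. The rows of the expression table whose symbol was Slc25a followed by a number were taken, 42 genes of 23051 in all, and 34 of them had at least 10 read counts in 5 or more libraries and were tested, of 12942 genes tested. The rule used names alone and no measured value other than this count minimum, but the carriers were chosen with earlier results of these data known. The 42 genes do not cover the whole family, so shares and sums below are of these 42 only. Bulk RNA sequencing had been done on rat tendon-derived stem cells, progenitors from tendon that can form bone, in 2 groups of 5 libraries. One group had osteogenic induction with 50 µM farnesol, an isoprenoid alcohol, and the other osteogenic induction alone (control), and both were taken on day 3. The titles call the controls untreated while their library names read as vehicle, so their solvent is not known here. The labels count biological replicates without saying whether these were separate animals or cultures, so p-values describe the spread between these libraries, which may be technical.

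Carriers set which substrates mitochondria can trade with the rest of the cell. The ADP/ATP carriers send out ATP, the citrate carrier supplies carbon for fatty acid and sterol synthesis, the aspartate-glutamate and oxoglutarate carriers form the malate-aspartate shuttle, and others bring in iron, glutathione or cofactors. In cells turned towards bone, as in other cells, they link energy supply to biosynthesis.

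Libraries held 41.8 to 47.1 M (mega) counts, and a gene at 0 in a library could still have had up to 3 counts, or 0.0632 to 0.072 CPM (counts scaled to library size), counting error only. Within groups the libraries were strung out along 1 main direction, the library axis, which held 36.2% of the variance within groups and ran against each library's trend with gene length (r = -0.981 over the 10 libraries, which share this table). Farnesol libraries scored from -0.294 (replicate 3) to 60 (replicate 5) on it, and control libraries from -40.3 (replicate 1) to 4.29 (replicate 3), so the axis and farnesol were partly confounded. Further fits, whose covariate was the axis score or the length slope of each library, are given beside the fit without a covariate. Of 12 listed tendon and mesenchymal markers 11 were tested, 0 higher and 5 lower, and they summed to 27600 to 31600 CPM in farnesol and 27400 to 29400 CPM in control libraries, with Tnmd at 0 or 1 counts. Summed mural markers were 3960 to 4740 CPM in farnesol libraries and 7020 to 7910 CPM in control libraries, with 4 of 5 tested lower and Rgs5 at 0 or 1 counts. Summed skeletal muscle markers were 59.4 to 91.2 CPM in farnesol and 141 to 169 CPM in control libraries, with Acta1 the 1 of 7 that was tested (lower), Ckm at 0 to 6 counts and Mb at 0 or 1. Adipocyte markers summed to 0.8 to 1.57 CPM in farnesol and 2.32 to 4 CPM in control libraries (1 of 5 tested, lower; Pck1 at 0). Leukocyte markers summed to 65.5 to 69.7 CPM in farnesol and 49.7 to 53.8 CPM in control libraries (3 of 6 tested, 2 higher, with Ptprc at 0). Endothelial markers summed to less than 1 CPM in either group (1 of 6 tested, lower, with Cdh5 at 0). Of all tested genes 29.3% were higher and 30% lower in the same test, described below. The part of these marker shifts in the carrier results was not tested.

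With farnesol 13 of the 34 tested carriers rose, 8 fell and 13 did not pass, by edgeR's quasi-likelihood test at a Benjamini-Hochberg adjusted p under 0.05 over all 12942 genes. The background was high, since 29.3% of all tested genes were called higher and 30% lower, against 38.2% and 23.5% of the carriers. The median log2 fold change was 0.07 over the tested carriers and 0.01 over all tested genes. In bulk RNA, fewer cells of a type and less RNA per cell cannot be told apart. Slc25a1, the citrate carrier, had the largest rise, 1.86-fold, and Slc25a36, a pyrimidine nucleotide carrier, the largest fall, 1.79-fold lower. All 5 farnesol libraries lay above all 5 control libraries in 10 carriers and below them in 5, where 19.7% and 20.9% of all tested genes did so. Without control replicate 1 the number of carriers that fell was 5, and without any 1 other library it was 6 to 8.

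With the library axis as a covariate 7 carriers rose and 1 fell (all tested genes 9.11% and 12%), and with the length slope 2 rose and 0 fell (3% and 4.54%). Slc25a1 was the 1 carrier called higher in all 3 fits, a pattern that 2.29% of tested genes shared, and 0 were called lower in all 3 (3.52% of tested genes). With a smooth length trend taken out of each library instead, 11 rose and 7 fell (32% and 24.4%). The map of fold changes by substrate shows 33 carriers in the 3 fits.

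**Figure D1:**
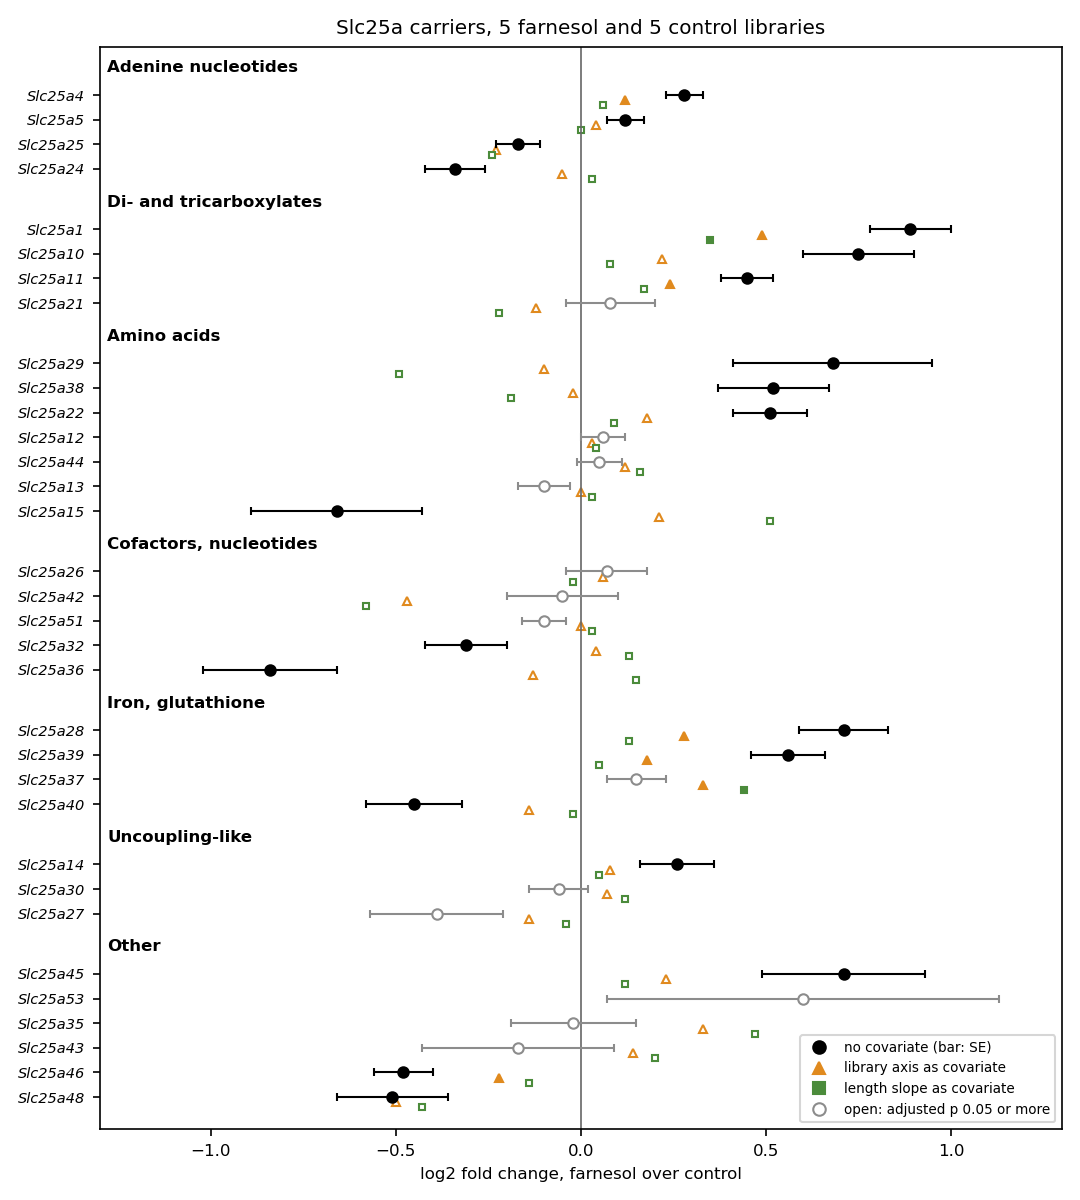
Log2 fold change (farnesol over control) of 33 tested Slc25a carriers by substrate, with circles and SE bars for the fit without a covariate, triangles for the axis and squares for the length slope as the added term, and open symbols for an adjusted p of 0.05 or more. Slc25a1 is filled in all 3 fits at 0.89, 0.49 and 0.35, while most other squares are open. Triangle and square of Slc25a53, at 2.22 and 2.87, lie beyond the axis and are not drawn.

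Of 4 di- and tricarboxylate carriers 3 rose and 0 fell without a covariate, beside 29.3% and 30% of all tested genes. When the axis was the covariate 2 rose and 0 fell (all tested genes 9.11% and 12%). With the length slope 1 rose and 0 fell (3% and 4.54%). The median log2 fold changes were 0.60, 0.23 and 0.13. Slc25a1 (chromosome 11, 83055748 to 83058781, plus strand, build rn7 per the submitters' processing notes), which moves citrate out of the matrix, had 45.9, 43.2, 39.8, 45.3 and 58.3 FPKM (counts scaled to gene length and library total) in farnesol replicates 1 to 5, against 21.5, 24.8, 28.8, 23.9 and 24.6 FPKM in control replicates 1 to 5. Even the lowest farnesol library lay above the highest control library, and the rise was 1.86-fold (log2 fold change 0.89, SE 0.11, adjusted p = 4.46e-05, edgeR). It was 0.8 to 0.95 with each library left out in turn, 0.49 with the axis (adjusted p = 1.13e-07, edgeR) and 0.35 with the length slope (adjusted p = 0.0076, edgeR). Slc25a10 (chromosome 10, 105765372 to 105773556), which trades malate or succinate for phosphate, had 5.82, 5.53, 5.98, 5.3 and 9.44 FPKM in farnesol libraries and 3.52, 3.44, 4.14, 3.94 and 3.86 FPKM in control libraries. Replicate 5 stood far above the other farnesol libraries, yet the groups did not overlap. It rose 1.68-fold (log2 fold change 0.75, SE 0.15, adjusted p = 0.00122, edgeR), and with the axis and the length slope the estimates were 0.22 and 0.08, no longer called. Slc25a11 (chromosome 10, 55357597 to 55360410), the oxoglutarate-malate exchanger, had 31.9, 29, 28.5, 30.8 and 33.6 FPKM in farnesol libraries and 20.5, 21.2, 24, 22.5 and 23.2 FPKM in control libraries. These groups did not overlap either, and its 1.36-fold rise was called with the axis (log2 fold change 0.24) but not with the length slope (0.17, adjusted p = 0.293, edgeR). Slc25a21, which carries oxoadipate, had 1.27 ± 0.107 FPKM in farnesol and 1.19 ± 0.144 FPKM in control libraries (SD, n = 5 each) and did not pass.

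The promoters of these 3 carriers are shown because each was called higher without a covariate, and no test sets them apart from other carriers. Each runs from 250 bases before to 50 after the gene's start, 5′ to 3′ on the gene's strand, from RefSeq on build GRCr8. Capitals mark CCAAT (or ATTGG) and GGGCGG (or CCGCCC), the letters of the CCAAT box and the GC box on either strand, and no match of one overlapped a match of the other. The windows are chr11:96559804-96560103, plus strand, for Slc25a1, chr10:106264146-106264445, plus strand, for Slc25a10 and chr10:55859011-55859310, minus strand, for Slc25a11.
Slc25a1: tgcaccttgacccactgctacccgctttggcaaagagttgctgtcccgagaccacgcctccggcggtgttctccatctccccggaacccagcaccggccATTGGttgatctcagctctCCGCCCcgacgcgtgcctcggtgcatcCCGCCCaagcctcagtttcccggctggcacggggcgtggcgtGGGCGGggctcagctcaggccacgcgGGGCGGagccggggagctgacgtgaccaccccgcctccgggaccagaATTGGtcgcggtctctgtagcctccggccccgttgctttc
Slc25a10: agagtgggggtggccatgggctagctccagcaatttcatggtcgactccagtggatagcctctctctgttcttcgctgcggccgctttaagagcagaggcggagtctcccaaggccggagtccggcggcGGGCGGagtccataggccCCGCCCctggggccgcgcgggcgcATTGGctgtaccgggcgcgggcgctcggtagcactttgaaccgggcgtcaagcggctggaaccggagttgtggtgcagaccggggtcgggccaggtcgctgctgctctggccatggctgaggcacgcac
Slc25a11: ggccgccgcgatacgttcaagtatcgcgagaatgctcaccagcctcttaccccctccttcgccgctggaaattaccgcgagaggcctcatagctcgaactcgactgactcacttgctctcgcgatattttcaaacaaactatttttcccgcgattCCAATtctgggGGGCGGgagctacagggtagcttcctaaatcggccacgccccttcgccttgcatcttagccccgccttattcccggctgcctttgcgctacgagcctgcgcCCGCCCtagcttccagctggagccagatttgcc
Slc25a1 held 2 CCAAT boxes and 4 GC boxes, while Slc25a10 and Slc25a11 each held 1 and 2.

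Of the 42 carriers 35 had a promoter in the RefSeq table, among them 12 of the 13 that rose and 5 of the 8 that fell. GGGCGG was in 22 of the 35 (62.9%, against 34.9% of all 27457 promoters), in 11 of the 12 that rose, 3 of the 5 that fell and 6 of the 10 tested but not called. CCAAT was in 18 of 35 (51.4%, against 37.7%), in 6 of 12, 3 of 5 and 6 of 10. The ETS letters CCGGAAG were in 4 (11.4%, against 9.22%), CACGTG, the E-box, in 3 (8.57%, against 6.65%), the NRF1 motif in 2 (5.71%, against 4.71%), and TGACNNNGC, the antioxidant response element core, in 3 (8.57%, against 12.2%). The sterol regulatory element letters TCACNCCAC were in 1 (2.86%, against 1.13%), Slc25a24. Neither the ATF4 letters TGATGNAA nor the ERR letters AAGGTCA was in any of the 35 (3.82% and 4.37% of all promoters). Base composition differed as well, with a median of 63.3% G and C in the 12 that rose, 54% in the 5 that fell, 58% in all 35 and 52.3% in all promoters. All 9 were searched on both strands and none was tested.

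Adenine nucleotide carriers went both ways, with the ADP/ATP carriers higher and the ATP-Mg/phosphate carriers lower. Slc25a4 (chromosome 16, 46072939 to 46076733), the ADP/ATP carrier of heart and muscle, had the highest level of the 42 genes, at 430, 422, 421, 417 and 460 FPKM in farnesol libraries and 325, 351, 378, 351 and 346 FPKM in control libraries. It alone held 48.1% ± 0.399 of the summed FPKM of the 42 genes in farnesol and 46.3% ± 0.832 in control libraries (SD, n = 5 each). It rose 1.21-fold with no overlap (log2 fold change 0.28, SE 0.05, adjusted p = 0.00104, edgeR), and by 0.12 with the axis. The call ended with the length slope (0.06) and with the smooth length trend removed (0.05). Slc25a5 (chromosome X, 116031803 to 116034967), the ADP/ATP carrier of dividing cells, came next, at 184, 184, 183, 184 and 184 FPKM in farnesol libraries and 155, 173, 175, 170 and 162 FPKM in control libraries. Farnesol libraries were nearly equal and all above the controls, and the rise was 1.09-fold (adjusted p = 0.0414, edgeR). That call was lost with either covariate, with the length trend removed and with no filter on low counts. It was also lost with the replicate number as a block (adjusted p = 0.131, edgeR). The same held without any 1 of farnesol replicates 1, 2 or 4 or control replicates 1 or 5 (adjusted p up to 0.1, edgeR).

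Slc25a24 (chromosome 2, 196761274 to 196799231), which trades ATP-Mg for phosphate under control of calcium, had 29.8, 32.5, 34.8, 32.5 and 23.8 FPKM in farnesol libraries and 40.2, 37.9, 35.1, 38.3 and 39.5 FPKM in control libraries. It fell 1.26-fold (log2 fold change -0.34, SE 0.08, adjusted p = 0.00323, edgeR) with no overlap, although farnesol replicate 3 and control replicate 3 lay close together. The log2 fold change was -0.05 and 0.03 with the axis and the length slope, and no longer called. Its paralog Slc25a25 had 3.5, 3.39, 3.26, 3.56 and 3.45 FPKM in farnesol libraries and 3.71, 3.82, 3.91, 3.52 and 4.04 FPKM in control libraries. The groups were separate on the TMM-scaled CPM used for the test but met on FPKM, and the 1.12-fold fall (adjusted p = 0.0385, edgeR) missed the threshold in limma-trend on FPKM (adjusted p = 0.0719) and in 8 of 10 fits that left out 1 library. It also did so with either covariate, where the log2 fold change was no smaller (axis -0.23, length slope -0.24, no covariate -0.17). The other adenine nucleotide carriers, Slc25a6, Slc25a23, Slc25a31 and Slc25a41, had 0 to 8 counts per library and were not tested.

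**Figure D2:**
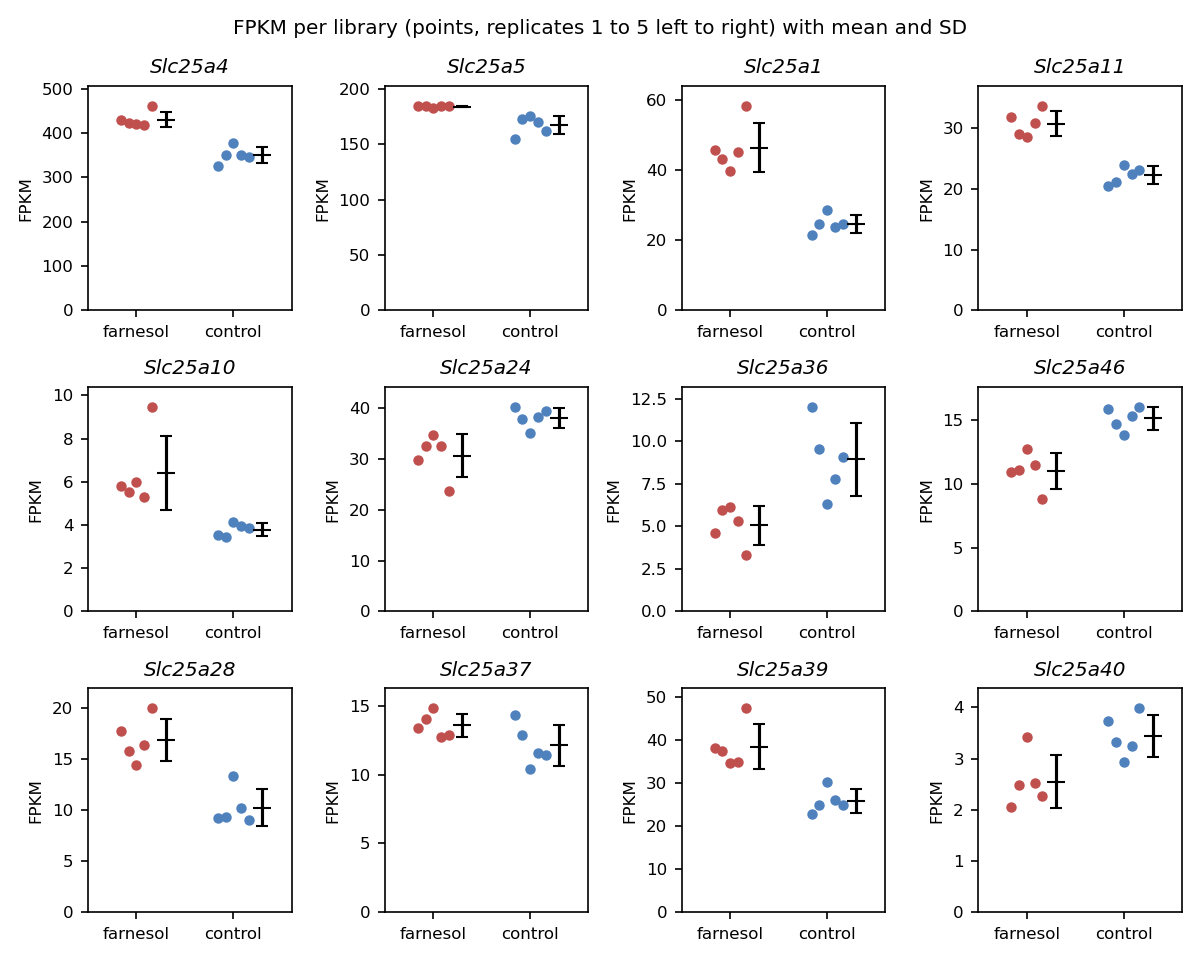
FPKM in each library (points, farnesol left of control, replicates 1 to 5 from left to right) for 12 carriers, with mean and SD bars, n = 5 each, and axes from 0. Farnesol points lie above all control points in Slc25a4, Slc25a5, Slc25a1, Slc25a11, Slc25a10, Slc25a28 and Slc25a39 and below them in Slc25a24, Slc25a36 and Slc25a46, while Slc25a37 and Slc25a40 overlap.

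Iron and glutathione carriers held both risers and fallers. Slc25a28, mitoferrin-2, which brings iron into mitochondria, had 17.8, 15.8, 14.5, 16.4 and 20 FPKM in farnesol libraries and 9.26, 9.37, 13.4, 10.2 and 9.08 FPKM in control libraries. The groups did not overlap, with control replicate 3 nearest to the farnesol libraries. It rose 1.63-fold (log2 fold change 0.71, SE 0.12, adjusted p = 0.00048, edgeR), stayed called with the axis (0.28) and missed the threshold with the length slope (0.13). Slc25a37, mitoferrin-1, the iron carrier of red cell precursors, had 13.4, 14, 14.8, 12.7 and 12.9 FPKM in farnesol libraries and 14.3, 12.9, 10.4, 11.6 and 11.4 FPKM in control libraries. Its groups overlapped and it did not pass without a covariate (log2 fold change 0.15, adjusted p = 0.153, edgeR), whereas it was called higher with the axis (0.33, adjusted p = 0.0104, edgeR), with the length slope (0.44, adjusted p = 0.0152, edgeR) and without control replicate 1 (0.21, adjusted p = 0.0344, edgeR).

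Slc25a39, which imports glutathione, had 38.1, 37.5, 34.7, 34.9 and 47.4 FPKM in farnesol libraries and 22.9, 24.9, 30.3, 26.1 and 25 FPKM in control libraries. It rose 1.47-fold with no overlap (log2 fold change 0.56, SE 0.1, adjusted p = 0.000571, edgeR), and by 0.18 with the axis, but was not called with the length slope (0.05). Its paralog Slc25a40 moved the other way, at 2.06, 2.48, 3.42, 2.52 and 2.27 FPKM in farnesol libraries and 3.73, 3.32, 2.93, 3.25 and 3.98 FPKM in control libraries. Farnesol replicate 3 overlapped the controls, and Slc25a40 fell 1.37-fold (log2 fold change -0.45, adjusted p = 0.00934, edgeR), a call lost with either covariate. Their promoters are printed because the 2 genes share a substrate and went apart. The windows are chr10:87866924-87867223, minus strand, for Slc25a39 and chr4:26631334-26631633, minus strand, for Slc25a40, with the same source, build and capitals as above.
Slc25a39: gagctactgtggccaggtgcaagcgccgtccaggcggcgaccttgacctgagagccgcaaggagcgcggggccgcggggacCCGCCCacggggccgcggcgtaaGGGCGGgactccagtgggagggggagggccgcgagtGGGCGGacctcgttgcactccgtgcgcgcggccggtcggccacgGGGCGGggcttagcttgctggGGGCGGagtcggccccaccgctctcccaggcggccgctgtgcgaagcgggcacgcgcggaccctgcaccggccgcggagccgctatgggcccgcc
Slc25a40: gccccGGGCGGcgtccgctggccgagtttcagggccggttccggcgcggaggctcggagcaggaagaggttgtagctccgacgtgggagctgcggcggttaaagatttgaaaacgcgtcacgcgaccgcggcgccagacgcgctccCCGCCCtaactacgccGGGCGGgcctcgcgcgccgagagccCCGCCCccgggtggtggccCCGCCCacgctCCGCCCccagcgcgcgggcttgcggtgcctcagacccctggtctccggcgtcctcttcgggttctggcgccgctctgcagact
Both held GC boxes, 5 in Slc25a39 and 6 in Slc25a40, and neither had CCAAT in this window.

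Amino acid carriers rose in 3 of 7 tested cases and fell in 1 (42.9% and 14.3%), beside 29.3% and 30% of all tested genes. Slc25a22, a glutamate carrier, had 7.89 ± 0.94 FPKM in farnesol and 5.49 ± 0.564 FPKM in control libraries (SD, n = 5 each), and rose 1.42-fold with no overlap. Slc25a38, which brings in glycine for haem synthesis, had 4.96, 4.67, 4.2, 4.49 and 7.3 FPKM in farnesol libraries and 2.9, 3.74, 3.72, 3.77 and 3.57 FPKM in control libraries. Farnesol replicate 5 was far above the rest and the groups did not overlap. Slc25a38 rose 1.43-fold (log2 fold change 0.52, adjusted p = 0.00835, edgeR), and the log2 fold change was 0.35 without that library. Slc25a29, a carrier of basic amino acids, had 1.24, 1.67, 1.46, 1.68 and 2.44 FPKM in farnesol libraries and 0.585, 1.05, 1.79, 1.01 and 0.82 FPKM in control libraries. Its groups overlapped through control replicate 3, and the call (log2 fold change 0.68, adjusted p = 0.042, edgeR) was lost in 7 of 10 fits that left out 1 library and with the length trend removed. None of these 3 was called with either covariate.

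Slc25a15, the ornithine carrier of the urea cycle, had 1.59, 1.62, 2.31, 2.01 and 0.919 FPKM in farnesol libraries and 3.73, 2.59, 1.86, 2.32 and 2.66 FPKM in control libraries. It fell 1.58-fold with overlap (adjusted p = 0.0226, edgeR), and with the axis and the length slope the log2 fold change was 0.21 and 0.51, on the other side of 0 and not called. That call was also lost without farnesol replicate 1 or control replicate 1. The aspartate-glutamate carriers, by contrast, did not pass: Slc25a12 had 7.87, 7.05, 7.01, 8.04 and 7.34 FPKM in farnesol libraries and 7.38, 6.81, 7.16, 6.86 and 7.08 FPKM in control libraries. For Slc25a13 the values were 6.99, 6.81, 7.05, 6.12 and 5.97 FPKM in farnesol libraries and 7.06, 6.93, 6.41, 7.43 and 7.09 FPKM in control libraries. Groups overlapped in both, with log2 fold changes of 0.06 (SE 0.06) and -0.10 (SE 0.07). Slc25a44, which carries branched-chain amino acids, had 7.21 ± 0.528 FPKM in farnesol and 6.86 ± 0.288 FPKM in control libraries (SD, n = 5 each). It passed in none of the 3 fits, but was called higher with the smooth length trend removed (log2 fold change 0.22, adjusted p = 0.00706, edgeR). Slc25a2 and Slc25a18 had 0 or 1 counts per library.

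Of 6 tested carriers of cofactors and nucleotides 2 fell and 1 rose (33.3% and 16.7%), beside 30% and 29.3% of all tested genes. Slc25a36 (chromosome 8, 97662127 to 97693703), which carries pyrimidine nucleotides, had 4.64, 5.96, 6.12, 5.3 and 3.3 FPKM in farnesol libraries and 12, 9.57, 6.3, 7.76 and 9.08 FPKM in control libraries. Control libraries were widely spread and control replicate 3 came close to the farnesol libraries, without overlap. It fell 1.79-fold (log2 fold change -0.84, SE 0.18, adjusted p = 0.00147, edgeR), with estimates of -0.13 with the axis (adjusted p = 0.446, edgeR) and 0.15 with the length slope (adjusted p = 0.601, edgeR), neither of them called. Slc25a32, a folate carrier, had 4.63, 4.62, 5.28, 5.47 and 3.43 FPKM in farnesol libraries and 6, 5.86, 5.22, 5.23 and 6.23 FPKM in control libraries, so the groups overlapped. Its 1.24-fold fall (adjusted p = 0.0289, edgeR) was lost with either covariate and in 5 of 10 fits that left out 1 library. Slc25a26, the carrier of S-adenosylmethionine, Slc25a42, of coenzyme A, and Slc25a51, of NAD, did not pass. Slc25a51 was at 6.99 ± 0.513 FPKM in farnesol and 7.41 ± 0.292 FPKM in control libraries (SD, n = 5 each), and a close copy, Slc25a51l1, with 72 to 133 counts, could have taken part of its reads.

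Of the 3 tested carriers related to the uncoupling proteins, Slc25a14 rose 1.19-fold with overlapping groups (adjusted p = 0.042, edgeR), a call lost with either covariate and in 7 of 10 fits that left out 1 library. Slc25a30 (log2 fold change -0.06) and Slc25a27 (-0.39, adjusted p = 0.0735, edgeR) did not pass, although Slc25a27 was called lower without farnesol replicate 1 (adjusted p = 0.0169, edgeR) or control replicate 2 (adjusted p = 0.0377, edgeR).

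Slc25a46, an outer membrane protein that takes part in mitochondrial fission had 10.9, 11.1, 12.7, 11.5 and 8.78 FPKM in farnesol libraries and 15.9, 14.7, 13.8, 15.3 and 16 FPKM in control libraries. The groups did not overlap. Slc25a46 fell 1.4-fold (log2 fold change -0.48, SE 0.08, adjusted p = 0.000443, edgeR) and was the 1 carrier still called lower with the axis (-0.22, adjusted p = 0.0236, edgeR), but not with the length slope (-0.14, adjusted p = 0.469, edgeR). Slc25a48 had 1.03, 0.956, 1.07, 0.709 and 1.01 FPKM in farnesol libraries and 1.58, 1.35, 1.32, 1.17 and 1.31 FPKM in control libraries, a 1.43-fold fall without overlap at a low level. Slc25a45 had 1.18, 0.98, 0.709, 1.02 and 1.49 FPKM in farnesol libraries and 0.505, 0.747, 0.499, 0.693 and 0.803 FPKM in control libraries, a 1.64-fold rise with overlap. Neither call was kept with a covariate, although the log2 fold change of Slc25a48 stayed near its size (axis -0.50, length slope -0.43, no covariate -0.51), while that of Slc25a45 shrank (axis 0.23, length slope 0.12, no covariate 0.71). Slc25a35, Slc25a43 and Slc25a53 did not pass, although Slc25a53, with 1 to 28 counts, was called higher with the axis (2.22, adjusted p = 0.0272, edgeR), and Slc25a47 and Slc25a54 had 0 to 5 counts per library.

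Together the 42 genes held 895, 880, 877, 875 and 944 FPKM in farnesol libraries and 719, 761, 796, 758 and 748 FPKM in control libraries, or 0.155% ± 0.00396 and 0.136% ± 0.00286 of all counts (SD, n = 5 each). Every farnesol library was thus above every control library, a separation that 19.7% of all tested genes showed one by one. Most of that sum was Slc25a4 and Slc25a5, at 614 ± 17.1 FPKM in farnesol and 517 ± 26.5 FPKM in control libraries (SD, n = 5 each). Neither gene was called with the length slope (log2 fold changes 0.06 and 0.00) or with the smooth length trend removed (0.05 and -0.09). The sum itself was not fitted with a covariate.

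Ratios within a library, which do not depend on how libraries are scaled but can on a trend with gene length, were compared in 6 pairs that share a substrate or a class of substrates, by a 2-sided exact permutation test over all regroupings of the libraries (smallest p 0.00794) with adjustment over the 6. The FPKM ratio of Slc25a5 to Slc25a4 was 0.399 to 0.442 in farnesol libraries and 0.462 to 0.494 in control libraries, without overlap (log2 difference -0.16, exact p = 0.00794, adjusted p = 0.0476). These 2 genes are of like length, 1297 and 1229 bp. No ratio was fitted with the axis or the length slope as a covariate, so the part of either in these differences was not tested. The pairs had been chosen with earlier results of these data known. Slc25a39 to Slc25a40 was 10.2 to 20.9 in farnesol libraries and 6.14 to 10.3 in control libraries, which overlap slightly (log2 difference 1.02, exact p = 0.0159, adjusted p = 0.0476). Leaving out 1 of farnesol replicates 1, 2 or 5 or control replicates 1, 2, 4 or 5 raised the adjusted p of that exact test to between 0.0635 and 0.0714. The lengths of Slc25a39 and Slc25a40 are 2447 and 3252 bp.

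Slc25a37 to Slc25a28 was 0.645 to 1.03 in farnesol and 0.772 to 1.54 in control libraries (log2 difference -0.56, exact permutation adjusted p = 0.0595). It passed without control replicate 3 (-0.71, exact permutation adjusted p = 0.0317) or farnesol replicate 3 (-0.64, exact permutation adjusted p = 0.0476). Slc25a10 to Slc25a11 was 0.172 to 0.281 in farnesol and 0.162 to 0.175 in control libraries (log2 difference 0.27, exact permutation adjusted p = 0.0595), and passed once the length trend was removed (0.49, exact permutation adjusted p = 0.0238). Leaving out farnesol replicate 5 brought that difference of Slc25a10 to Slc25a11 to 0.15, and it passed without farnesol replicate 3 or 4. Slc25a13 to Slc25a12 (-0.16) and Slc25a24 to Slc25a25 (-0.18) had adjusted p of 0.133 and 0.159 in the same exact permutation test.

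**Figure D3:**
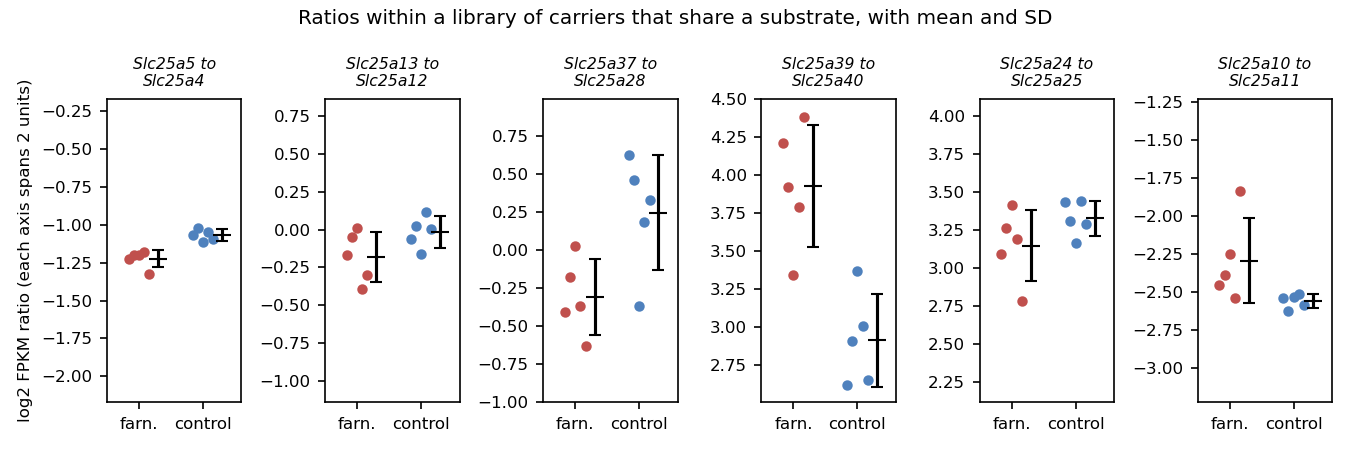
Log2 ratio of FPKM within each library for 6 pairs of carriers (points, farnesol left of control, n = 5 each, with mean and SD), each axis spanning 2 log2 units. The ratio of Slc25a5 to Slc25a4 is lower in every farnesol library, and that of Slc25a39 to Slc25a40 averages 3.93 in farnesol and 2.91 in control libraries.

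Gene length mattered for the table as a whole, where the log2 fold change correlated with log2 length at r = -0.31 over 12942 genes, against -0.06 over the 34 carriers, both across genes of the same 10 libraries and given as a description. Tested genes of up to 2356 bp included 14 carriers, of which 7 rose and 4 fell (50% and 28.6%), beside 44.2% and 11.9% of the other genes of that length. From 2357 to 3948 bp, 4 of 13 carriers rose and 3 fell (30.8% and 23.1%), beside 28.0% and 29.5% of the other genes of that length. From 3949 bp up 2 of 7 rose and 1 fell (28.6% and 14.3%), beside 15.6% and 48.6% of the other genes of that length. The median log2 fold change of the long genes was 0.05 in carriers and -0.23 in other genes.

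**Figure D4:**
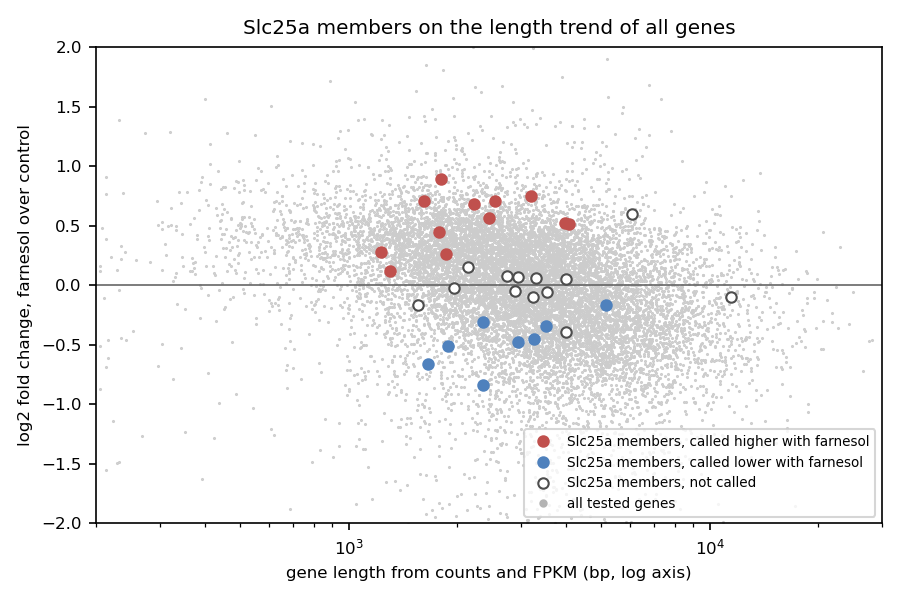
Log2 fold change (farnesol over control) against gene length on a log axis for all tested genes (grey) and 33 tested Slc25a carriers, with red for higher, blue for lower and open for not called. Carriers that fell, such as Slc25a15 at 1658 bp, and carriers that rose, such as Slc25a22 at 4078 bp, occur at short and long lengths, and 94 tested genes lie outside the axes.

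The table's Pfam column gave the mitochondrial carrier domain to 35 of the 42 genes and to 9 genes outside the list. Some carriers lay close together on the genome (rn7). Slc25a5 followed Slc25a43 on chromosome X at 20598 bp, Slc25a24 followed Slc25a54 on chromosome 2 at 4447 bp, and Slc25a23 followed Slc25a41 on chromosome 9 at 1197 bp. Their neighbours were low, with 31 to 72 counts for Slc25a43 and 0 to 5 for Slc25a54, and Slc25a23 and Slc25a41 were both untested. Close copies in the table could have taken reads of Slc25a5 (Slc25a5-ps9, 31 to 51 counts) and Slc25a36 (Slc25a36l1, 0 to 14 counts), so the values of both are uncertain to that extent. Among the genes outside the list with that domain, Ucp2, an uncoupling protein, had a log2 fold change of 0.91 (adjusted p = 0.000574, edgeR), and was called with neither covariate (axis 0.34, length slope 0.17). Ucp1 and Ucp3 had 0 to 20 counts.

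Genes that work with the carriers were read from the same fit. Of 11 tested genes that import carriers into the membranes 8 rose and 1 fell (72.7% and 9.09%, median log2 fold change 0.28), beside 29.3% and 30% of all tested genes. Their median length was 1589 bp, and they ranged from 409 to 4081 bp. Of the other genes up to 2356 bp 44.2% rose and 11.9% fell. From 2357 to 3948 bp these shares were 28.0% and 29.5%, and from 3949 bp up 15.6% and 48.6%. The import genes were not matched by length to other genes. With the axis and the length slope 1 and 0 of the 11 rose and 0 fell. Timm8b, a small chaperone of the space between the membranes, had 126 ± 9.89 FPKM in farnesol and 87.4 ± 11.6 FPKM in control libraries, its relative Timm8a1 had 22.9 ± 1.23 and 18.2 ± 0.989 FPKM, and Tomm22, a receptor of the outer membrane, 26.6 ± 0.852 and 21.6 ± 2 FPKM (SD, n = 5 each). The 1 that fell, named after its values were seen, was Tomm70, the receptor that carrier precursors bind, at 19.2 ± 2.74 FPKM in farnesol and 22.7 ± 0.959 FPKM in control libraries (log2 fold change -0.27, adjusted p = 0.012, edgeR). With a covariate Tomm70 was not called (log2 fold change -0.02 for the axis, 0.04 for the length slope).

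Of 18 other mitochondrial carriers, channels and carrier relatives 6 rose and 5 fell (33.3% and 27.8%), near the 29.3% and 30% of all tested genes. With the axis 3 of the 18 rose and 1 fell, beside 9.11% and 12% of all tested genes. With the length slope 1 rose and 0 fell, beside 3% and 4.54%. In all 3 fits 1 of the 18 was called higher, as were 2.29% of all tested genes. Mtch1, a carrier relative of the outer membrane, had 128 ± 17.5 FPKM in farnesol and 83 ± 9.15 FPKM in control libraries, and Sfxn5, a sideroflexin, 0.239 ± 0.0432 and 0.739 ± 0.164 FPKM (SD, n = 5 each). Mtch1 was still called with the axis (log2 fold change 0.22, against 0.60 without) but not with the length slope (0.10), and Sfxn5 with neither (-1.04 and -0.88, against -1.64 without). Of the outer membrane pores Vdac1 and Vdac2 rose (log2 fold changes 0.24 and 0.13) and Vdac3 did not pass. Vdac1 was still called with the axis (0.19) but not with the length slope (0.15). Vdac2, near the threshold without a covariate (adjusted p = 0.0483, edgeR), was called with neither (0.02 and -0.04). Of 9 tested regulators of mitochondrial gene expression 2 rose and 2 fell (22.2% each), beside 29.3% and 30% of all tested genes. Polrmt, the mitochondrial RNA polymerase, had a log2 fold change of 0.62, Twnk, the mitochondrial helicase, 0.25, and Gabpa, a transcription factor subunit, -0.53, each lost with either covariate.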

How the data were processed

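RNA was measured in 10 libraries, grouped by the sample titles. The authors deposited 1 table with raw read counts per gene and library and, beside them, FPKM values, per the file headers. Per the submitters' processing notes the build was rn7, and the tools were StringTie, DESeq, HTSeq 0.9.1 and HISAT2 2.0.5, in unstated roles. No source used here says whether counting was stranded, so overlapping and antisense genes cannot be told apart. Of 23052 rows 1 repeated another and was dropped. Gene length was taken from the counts and FPKM.

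The test was that of edgeR 4.0.16 under R 4.3.3 (TMM, robust quasi-likelihood, group as the only term) on genes with at least 10 counts in 5 or more libraries, adjusted over all 12942. The SE is the log2 fold change divided by the square root of F. To get the library axis, group means were taken off log2 CPM (prior count 2) and the gene weights of the leading principal component were kept. Each library was then scored with these weights on its deviation from the mean of all libraries, with group means left in. The score can therefore hold part of the difference between farnesol and control. For the length slope, each library's deviation from the mean log2 CPM was regressed on log2 length. Alternatives were RLE factors, DESeq2 1.42.0, limma 3.58.1 on log2(FPKM + 1), other filters, covariates and left-out libraries. The edgeR fit without a covariate was tested on simulated counts that had no library axis or length trend, and the permutation test on made-up values. The fits with a covariate or with the length trend removed were not tested in this way. Values in every library are given for the 6 highest carriers, the 7 largest rises and falls of at least 1 FPKM and the pairs. Genes of the other lists were named by the smallest p among those reported here one by one. The carriers, lists, pairs and covariates were chosen with earlier results of these data known. Of the 7 pairs listed, 1 had a member not analysed here, and some genes of the family and of the lists are not reported here one by one.

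Libraries of one group differed by a chi-square per gene of 3.93 to 112 in 20 pairs, so none was taken for a repeat deposit. Intervals and limits cover counting error only.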

Additional observations from a re-analysis of the deposited data

Results flagged for a closer look

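In 9 of 78 groups of 5 values one library stood apart from the other 4 by Dixon's criterion, where chance gives about 1 in 20. Farnesol replicate 5, the library furthest along the axis at a score of 60, accounted for 5 of them, each time as the highest. In CPM it was at 578 for Slc25a4 (the other farnesol libraries 505 to 524), 30.8 for Slc25a10 (16.7 to 18.7), 29.7 for Slc25a38 (16.4 to 19.5), 119 for Slc25a39 (83.5 to 92.4) and 6.43 for Slc25a42 (4.07 to 4.13). Control replicate 3, the control furthest along the axis, was highest at 26.6 for Slc25a22 (the other controls 21.1 to 21.9) and 21.8 for Slc25a28 (14.7 to 16.6). Control replicate 1, at the other end, was lowest at 11.6 for Slc25a38 (14.3 to 15.1) and highest at 29.6 for Slc25a44 (26.7 to 27.5). The part of the axis in these values was not tested.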

How the results depend on the processing

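With the library axis, and then the length slope, as covariate 7 and 2 carriers rose (13 without) and 1 and 0 fell (8 without), and 2730 and 975 of all genes were called (7668 without). With the replicate number as a block 10 carriers rose and 5 fell. Same-numbered libraries did not deviate together (correlations -0.389 to 0.0494, so the samples share only a number). Of 33 carriers 5 lost their call with that block, namely Slc25a5, Slc25a14, Slc25a15, Slc25a25 and Slc25a32. With each library left out in turn, 10 to 13 rose and 5 to 8 fell. With farnesol 5 and control 1 left out together, chosen after seeing the data, of 33 carriers 6 lost their call and 1 gained one (Slc25a37). DESeq2, RLE size factors and filterByExpr changed no call among 33 carriers. Called carriers whose log2 fold change crossed 0, none of them called there except Slc25a51, were, with the axis, Slc25a29 (-0.10), Slc25a32 (0.04), Slc25a15 (0.21) and Slc25a38 (-0.02). With the length slope they were Slc25a29 (-0.49), Slc25a32 (0.13), Slc25a15 (0.51), Slc25a36 (0.15), Slc25a38 (-0.19), Slc25a24 (0.03) and Slc25a5 (0.00). With the smooth length trend removed they were Slc25a25 (0.07), Slc25a5 (-0.09) and Slc25a51, which was not called in the main comparison (-0.10) and was called higher here (0.25, adjusted p = 0.00442, edgeR). For the pairs, the log2 difference of Slc25a10 to Slc25a11 was 0.49 with that trend removed and 0.15 to 0.33 with a library left out, that of Slc25a39 to Slc25a40 0.90 to 1.16, and that of Slc25a37 to Slc25a28 -0.71 to -0.46. The causes were not tested. Because farnesol and the axis are partly confounded, their parts cannot be told apart, in estimates with a covariate or without one.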
